A study of Homo sapiens with 4 samples.

Results

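The core genes of insulin and growth factor signaling through PI3K and AKT were followed in MHCC97H cells, an established human hepatocellular carcinoma line, with and without knockdown of UBXN1. The genes were a list of 8 chosen by name: the adaptor IRS1, the PI3K subunits PIK3CA, PIK3CB and PIK3R1, the kinases AKT1 and AKT2, and the transcription factors FOXO1 and FOXO3. They are 8 of the 61541 gene rows in the deposited table, and all 8 passed the filter on low counts that left 16863 genes. RNA was sequenced from 2 libraries of control cells (shCon) and 2 libraries of UBXN1-knockdown cells (shUBXN1). All 4 libraries came from the same line, and the groups differed in the short hairpin RNA they carried. UBXN1 is a UBX domain protein that binds ubiquitin and the ATPase VCP. Which of the study's hairpins was used is not given in the sources used here, so the knockdown stands for 1 unnamed hairpin or a mixture. The labels do not say whether replicates were separate cultures, so the p-values measure the spread between these libraries, which may be technical. In GENCODE (GRCh38), the genes lie on separate chromosomes apart from PIK3CA and PIK3CB, which are both on chromosome 3: IRS1 (ENSG00000169047) at chr2:226731312-226799820, PIK3CA (ENSG00000121879) at chr3:179148114-179240093, PIK3CB (ENSG00000051382) at chr3:138652698-138834928, PIK3R1 (ENSG00000145675) at chr5:68215740-68301821, AKT1 (ENSG00000142208) at chr14:104769349-104795751, AKT2 (ENSG00000105221) at chr19:40230317-40285536, FOXO1 (ENSG00000150907) at chr13:40555667-40666641 and FOXO3 (ENSG00000118689) at chr6:108559835-108684774.

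Insulin and related growth factors activate receptor kinases, which phosphorylate IRS adaptors. Class I PI3K, a dimer of a catalytic and a regulatory subunit, then binds the adaptor and makes the membrane lipid PIP3, to which AKT is recruited and activated. Active AKT phosphorylates FOXO factors and holds them in the cytoplasm, and in liver cells it favours glycogen and lipid synthesis and survival. The values here are RNA levels of bulk cultures, in which fewer cells of a kind and less RNA per cell cannot be told apart, and they say nothing of phosphorylation or of where the proteins were.

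The libraries held 23373700 to 27380508 counts. UBXN1 itself was at 67.1 and 77.3 CPM (counts scaled to library size by TMM) in shCon and at 16.8 and 18.5 CPM in shUBXN1. Its log2 fold change was -2.03 (SE 0.096, n = 2 per group, edgeR adjusted p = 9.98e-10), in the direction that the labels give. Mitochondrial genes took 5.28% and 5.59% of counts in shCon and 7.43% and 8.27% in shUBXN1, and without those counts each of the 8 genes stayed on the same side of the threshold. Of 8 hepatic markers, 8 were tested, 2 rose and 4 fell. Their summed level was 4300 and 4462 CPM in shCon and 3399 and 3987 CPM in shUBXN1, nearly all of it from the keratins KRT8 and KRT18. Defining hepatocyte genes were low, with ALB at 18.0 and 17.2 CPM in shCon and 4.20 and 4.78 CPM in shUBXN1 and APOA1 under 1 CPM in each library. The part of these markers in the results was not tested. Of 9 markers of other liver cells, 4 (PTPRC, CDH5, COL1A2 and ACTA2) were below the filter, 2 rose and 2 fell, and the list summed to 117.7 and 123.3 CPM in shCon and 120.3 and 116.6 CPM in shUBXN1.

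UBXN1 knockdown went with small changes in the PI3K and AKT genes. PIK3CA, PIK3R1, AKT2 and FOXO3 were higher in shUBXN1, by 1.22-fold to 1.41-fold, and PIK3CB was lower, at 0.875 of its level in shCon. AKT1, FOXO1 and IRS1 did not pass the test. Thus 5 of the 8 genes were called at an adjusted p under 0.05 (edgeR), 4 higher and 1 lower. Over all genes tested the same rule called 56.2%, with 28.0% higher and 28.2% lower. The count of genes called therefore lay near that of the table as a whole. None of the 8 reached a fold change of 2 with an unadjusted p under 0.05, a rule that 17.9% of all genes met. The shUBXN1 and shCon libraries did not overlap in CPM for 6 of the 8 genes, against 78.0% of all genes. The median absolute log2 fold change was 0.29 for the 8 genes and 0.44 for all genes. The signed median was 0.29 for the 8 genes and 0.02 for all genes.

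**Figure D1:**
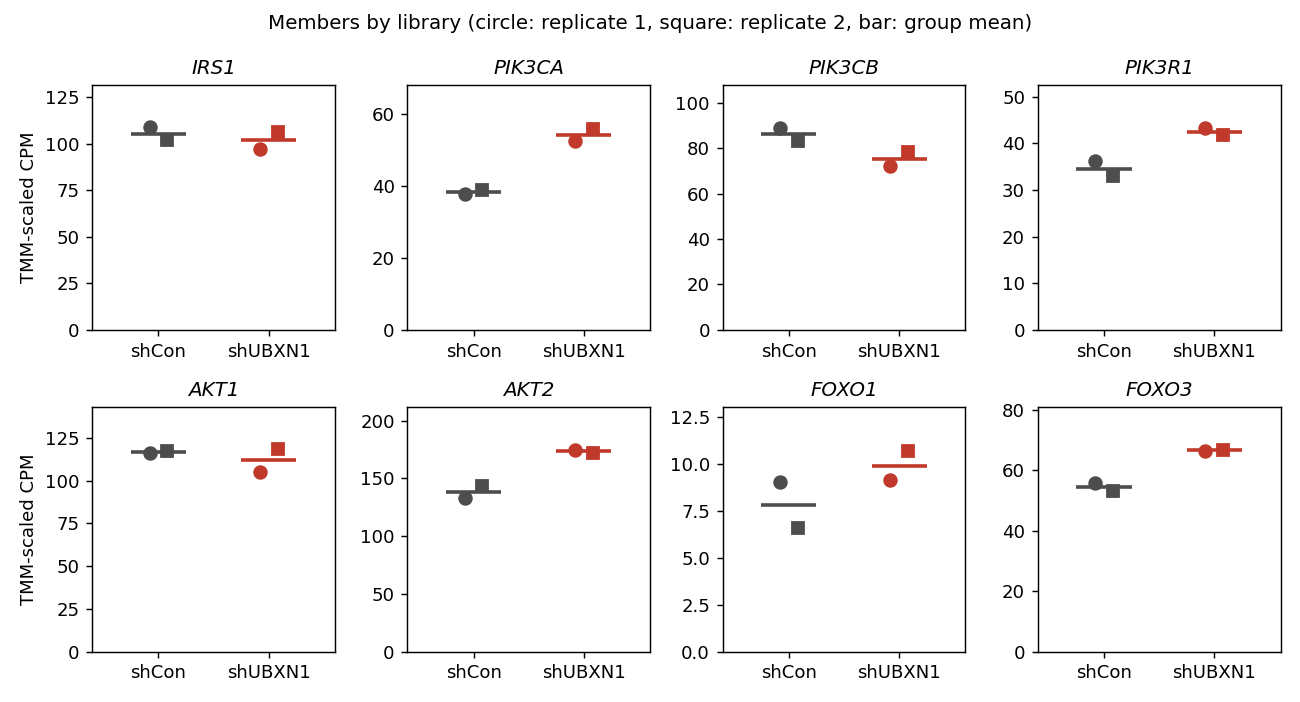
TMM-scaled CPM (vertical axes, each from 0 on its own scale) of the 8 genes in the 2 shCon (grey) and 2 shUBXN1 (red) libraries. Circles are replicate 1, squares are replicate 2 and horizontal bars are group means. PIK3CA shows the widest gap between groups relative to its level, and the groups overlap for IRS1 and AKT1.

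IRS1 is the adaptor that links the insulin and IGF1 receptors to PI3K. It was at 109.0 and 101.8 CPM in shCon and at 97.3 and 106.2 CPM in shUBXN1. The groups overlapped, and the log2 fold change of -0.05 (SE 0.077, n = 2 per group, edgeR adjusted p = 0.593) was smaller than its error. IRS2, the paralogue that carries much of insulin signaling in liver, was at 3.19 and 3.47 CPM in shCon and at 10.8 and 10.4 CPM in shUBXN1. IRS2 rose by 1.67 on the log2 scale (SE 0.175, edgeR adjusted p = 1.83e-06). The level of IRS1 per length was 28.6 and 24.5 times that of IRS2 in the shCon libraries and 7.52 and 8.50 times in the shUBXN1 libraries. The ratio was thus lower in both knockdown libraries than in either control. With 2 libraries per group, the two-sided exact permutation test of such a ratio cannot go below p = 0.333, which is the value it gave. Both receptors upstream were higher in shUBXN1. INSR, the insulin receptor, rose by 0.53 (SE 0.083, edgeR adjusted p = 7.71e-05), and IGF1R, the IGF1 receptor, rose by 0.40 (SE 0.079, edgeR adjusted p = 0.000633) on the log2 scale.

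The catalytic subunits of PI3K changed in opposite directions. PIK3CA encodes the alpha isoform, which acts mainly downstream of receptor kinases and is often mutated in cancer. It was at 37.8 and 39.0 CPM in shCon and at 52.7 and 55.9 CPM in shUBXN1. Both shUBXN1 libraries were above both controls, and the log2 fold change was 0.50 (SE 0.080, n = 2 per group, edgeR adjusted p = 9.84e-05). This call held in 17 of 17 alternatives of the processing, with log2 fold changes of 0.44 to 0.58. Annotated exons of KCNMB3 on the other strand cover 19.8% of the exon bases of PIK3CA, and whether counting used strand is not given in the sources used here. Summing the counts of both genes gave a log2 fold change of 0.52 (SE 0.075, edgeR adjusted p = 3.888e-05).

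PIK3CB encodes the beta isoform, which also responds to G protein-coupled receptors. It was at 89.0 and 83.1 CPM in shCon and at 72.3 and 78.3 CPM in shUBXN1. The groups did not overlap, and PIK3CB fell by 0.19 on the log2 scale (SE 0.077, n = 2 per group, edgeR adjusted p = 0.0465), close to the threshold. The call held in 8 of 17 alternatives. It was lost, for example, with DESeq2 (adjusted p = 0.0867), with total count scaling (edgeR adjusted p = 0.18) and when either shCon library or shUBXN1 replicate 1 was left out (edgeR adjusted p = 0.115 to 0.328), with the direction kept. Per length, PIK3CA was at 0.271 and 0.300 of the level of PIK3CB in shCon and at 0.465 and 0.456 in shUBXN1. The ratio was 1.61-fold higher in shUBXN1, and both knockdown libraries lay above both controls (exact permutation p = 0.333, the smallest possible). PIK3CD, the delta isoform best known from leukocytes, was low, at 2.55 and 3.19 CPM in shCon and 5.33 and 5.26 CPM in shUBXN1, and rose by 0.89 on the log2 scale (SE 0.232, edgeR adjusted p = 0.00474). PIK3CG, the gamma isoform, had 0 and 0 counts in shCon and 2 and 0 in shUBXN1 and was not tested.

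**Figure D2:**
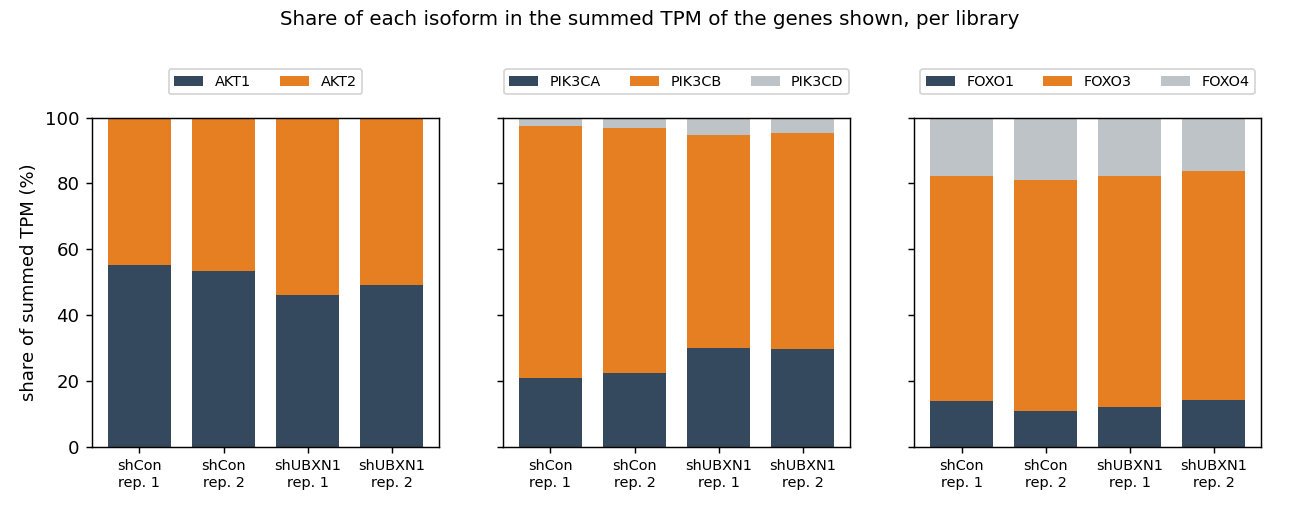
Share of each isoform in the summed TPM (a level scaled to gene length and library) of the genes shown (vertical axis, percent) in each library, as stacked bars for AKT1 with AKT2, PI3K catalytic subunits and FOXO. PIK3CA makes up 20.8% and 22.4% in shCon and 30.1% and 29.8% in shUBXN1. AKT1 has a smaller share of its sum with AKT2 in shUBXN1 (46.0% and 49.3%) than in shCon (55.3% and 53.5%), and the FOXO shares overlap between groups.

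The sequences before the annotated starts of the paralogues PIK3CA and PIK3CB, and of AKT1 and AKT2, are shown because each pair differed in direction or in call. In the 250 bases before each RefSeq start (GRCh38.p14), 4 motifs were searched on both strands. The GC box, spelled GGGCGGG, was found in 8 of 8 genes and in 31.5% of all 35116 promoters. The stretches of the 8 genes held 57.6% (PIK3CA) to 83.2% (AKT1) GC, against a median of 58.0% over all promoters. The part of base composition in the GC box count was not tested. The box with the letters CCAAT was found in 3 of 8 (PIK3CA, PIK3CB and FOXO1) and in 32.0% of all. An E-box, CACGTG, was found in 0 of 8 and in 6.34% of all. The FOXO motif, TTGTTTAC, was found in 1 of 8, PIK3CA, and in 0.846% of all promoters. It lies 150 bases before the RefSeq start of PIK3CA, at chr3:179148199-179148222 with its flanks. The RefSeq starts of PIK3CA, AKT1 and AKT2 lie inside the GENCODE genes given above. The stretches printed for PIK3CA and AKT2 are thus within the GENCODE span and before the RefSeq start only. The last bases of the AKT1 stretch also lie within that span. The GC boxes nearest to the RefSeq starts lie at chr3:179148292-179148314 (plus strand) for PIK3CA, chr3:138834958-138834980 (minus strand) for PIK3CB, chr14:104795749-104795768 (minus strand) for AKT1 and chr19:40285347-40285369 (minus strand) for AKT2. Each stretch is given 5′ to 3′ in the direction of its gene, with the bases of the named match in capitals. Bases in lower case can belong to another match. In the PIK3CB stretch they hold part of a GC box 49 bases before the start, which overlaps the printed one. In the AKT1 stretch they hold part of a GC box 23 bases before the start. A match describes the letters only, and no binding was measured.
PIK3CA, FOXO motif: ttcgttgtTTGTTTACacgatgtg
PIK3CA, GC box: ggagtcggGGGCGGGggcgtgtg
PIK3CB, GC box: gcagggcgGGGCGGGggctgctg
AKT1, GC box: cggggagaGGGCGGGccggc
AKT2, GC box: gggggaggGGGCGGGgggggccg

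PIK3R1 encodes the regulatory subunit that stabilises the catalytic subunits and holds them inactive until they bind phosphorylated adaptors. It was at 36.2 and 33.0 CPM in shCon and at 43.3 and 41.8 CPM in shUBXN1. The groups did not overlap, and PIK3R1 rose by 0.30 on the log2 scale (SE 0.085, n = 2 per group, edgeR adjusted p = 0.00825). The call was lost with DESeq2 (adjusted p = 0.067), with limma on log2(TPM + 1) (adjusted p = 0.0562) and without shCon replicate 2 (edgeR adjusted p = 0.214). With all 4 libraries, PIK3R3 and PIK3R2 had larger absolute log2 fold changes than PIK3R1, in opposite directions. The regulatory subunits PIK3R5 and PIK3R6 were below the filter. PIK3R3 was at 10.2 and 13.2 CPM in shCon and at 38.6 and 37.1 CPM in shUBXN1. That was a rise of 1.70 on the log2 scale (SE 0.118, edgeR adjusted p = 3.25e-08). An annotated gene on the same strand shares 17.5% of the exon bases of PIK3R3. Summing the 2 genes left these CPM unchanged, so the sum could not test the effect of that overlap. PIK3R2 shares 76.4% of its exon bases with another annotated gene on the same strand, and its own counts varied within shUBXN1 (22.5 and 8.09 CPM, against 24.5 and 31.5 CPM in shCon). Summed over both genes, a combination chosen after seeing the data, the level was 52.7 and 51.3 CPM in shCon and 30.7 and 30.1 CPM in shUBXN1. The summed counts fell by 0.78 on the log2 scale (SE 0.081, edgeR adjusted p = 1.63e-06). PIK3R2 alone fell by 0.87 on that scale (SE 0.283, edgeR adjusted p = 0.0176). That call was lost with DESeq2 (adjusted p = 0.34), limma on log2(TPM + 1) (adjusted p = 0.13) and total count scaling (edgeR adjusted p = 0.117), and leaving out 1 library moved the value from -0.33 (without shUBXN1 replicate 2) to -1.79 (without shUBXN1 replicate 1). The change of PIK3R2 as counted alone, and its ratio to PIK3R1, are therefore uncertain.

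AKT1, the kinase isoform with broad roles in growth and survival, was at 116.2 and 117.0 CPM in shCon and at 104.9 and 118.6 CPM in shUBXN1. The groups overlapped, and the log2 fold change was -0.06 (SE 0.078, n = 2 per group, edgeR adjusted p = 0.53). AKT2, the isoform most tied to insulin action in liver, muscle and fat, was at 132.8 and 143.6 CPM in shCon and at 174.6 and 172.2 CPM in shUBXN1. Both knockdown libraries were higher, and AKT2 rose by 0.33 on the log2 scale (SE 0.074, n = 2 per group, edgeR adjusted p = 0.00173). The calls of both kinases changed with the treatment of base composition. The transcripts of AKT1 and AKT2 have 60.7% and 58.5% GC, the highest of the 8 genes, which range down to 36.2% in PIK3CA. With the trend of fold change on GC content removed, AKT1 was at -0.36 (edgeR adjusted p = 0.0027) and AKT2 at 0.09 (edgeR adjusted p = 0.378) on the log2 scale. That alternative ended the call of AKT2 and added one for AKT1, and the part of GC content in the result was not tested further. The ratio of the kinases moved little under it. Per length, AKT1 was at 1.24 and 1.15 times AKT2 in shCon and at 0.850 and 0.974 times in shUBXN1 (exact permutation p = 0.333, the smallest possible), a log2 difference of -0.39, and of -0.45 with the trend removed.

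**Figure D3:**
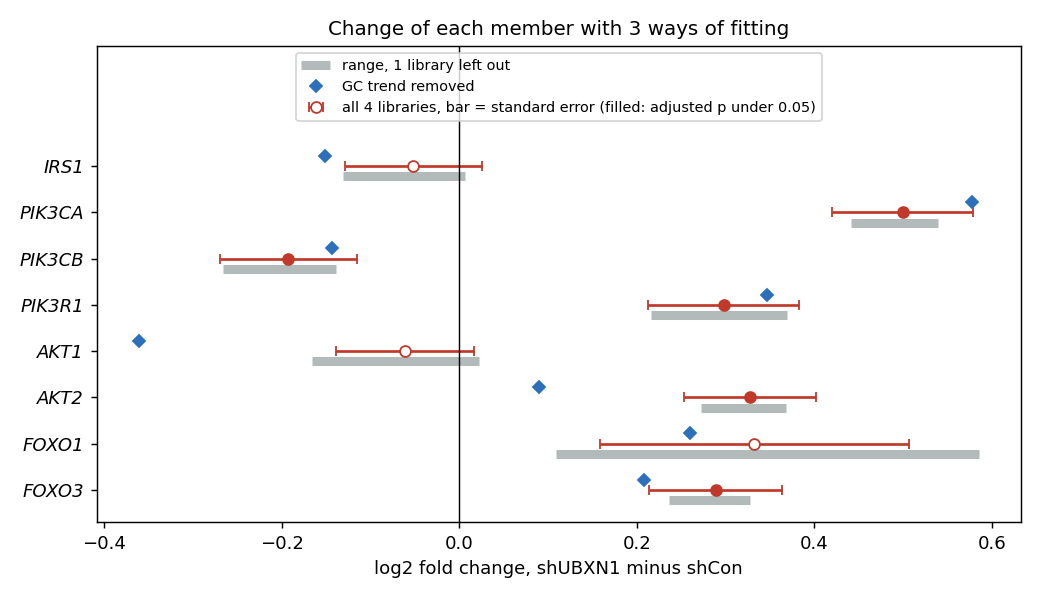
Log2 fold change of shUBXN1 minus shCon (horizontal axis) for the 8 genes. Red points with bars are values and standard errors from all 4 libraries (filled where the adjusted p was under 0.05), blue diamonds are values with the GC trend removed, and grey bands span the fits that left out 1 library. PIK3CA stays at 0.44 or above in all of these, while the diamonds of AKT1 (-0.36) and AKT2 (0.09) lie furthest from their red points.

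FOXO1 and FOXO3 are the transcription factors that AKT restrains. FOXO3, the more abundant of the pair, was at 55.9 and 53.1 CPM in shCon and at 66.3 and 66.9 CPM in shUBXN1. The groups did not overlap, and FOXO3 rose by 0.29 on the log2 scale (SE 0.075, n = 2 per group, edgeR adjusted p = 0.00456). Its call held in 16 of 17 alternatives and was lost without shCon replicate 2 (edgeR adjusted p = 0.161). FOXO1, which drives gluconeogenic genes in fasted liver, was at 9.08 and 6.60 CPM in shCon and at 9.13 and 10.7 CPM in shUBXN1. The highest control and the lowest knockdown library nearly met, and the spread within shCon was wide. The log2 fold change of FOXO1 was 0.33 (SE 0.174, n = 2 per group, edgeR adjusted p = 0.119). It passed the threshold without shCon replicate 1 (0.58, edgeR adjusted p = 0.0203) and without shUBXN1 replicate 1 (0.44, edgeR adjusted p = 0.0374), so 1 library decided the call. An annotated gene on the same strand shares 22.7% of the exon bases of FOXO1, and summed with it the log2 fold change was 0.29 (edgeR adjusted p = 0.1797). With 155 to 250 counts per library FOXO1 was the least deeply counted of the 8, and AKT2 reached 4321. Per length, FOXO1 was at 0.205 and 0.157 of FOXO3 in shCon and at 0.174 and 0.202 in shUBXN1 (exact permutation p = 1), and no difference was detectable. FOXO4 had a log2 fold change of 0.17 (SE 0.159, edgeR adjusted p = 0.386).

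Ordered by TPM, a level per length, AKT1 led in shCon (63.0 ± 1.02, SD, n = 2), followed by AKT2 (52.8 ± 1.79), PIK3CB (29.2 ± 2.05), IRS1 (21.6 ± 1.51), FOXO3 (15.0 ± 0.87), PIK3R1 (9.95 ± 0.87), PIK3CA (8.31 ± 0.017) and FOXO1 (2.72 ± 0.66). No neighbours in that order had overlapping libraries. In shUBXN1, AKT2 (69.1 ± 4.30 TPM) stood above AKT1 (62.8 ± 2.13), with no overlap. The order below them was the same, and the libraries of PIK3R1 (12.8 ± 0.99 TPM) and PIK3CA (12.2 ± 0.12) overlapped there. The order of AKT1 and AKT2 in TPM was thus exchanged between groups. It depends on the gene lengths used, as AKT2 was above AKT1 in CPM in all 4 libraries. The genes whose centred log2 CPM over the 4 libraries lay nearest to that of PIK3CA were TMED4, QPRT and TANK, at Euclidean distances of 0.0149, 0.0157 and 0.0187 among 11992 genes compared. With 4 libraries such likeness is common, and 240 genes lay within 0.1.

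The rest of the pathway was described from 7 hand-written lists holding 88 other genes, of which 77 were tested. Of these, 33 (42.9%) rose and 20 (26.0%) fell, where 28.0% and 28.2% of all genes tested did so. With the GC trend removed 27 rose and 28 fell, where 3943 and 5416 of all 16863 genes did so, and the median log2 fold change of the 77 was 0.20 in the fit without that correction. IRS2 and PIK3IP1 stand in 2 lists each and were counted once in these totals. Fold changes of 2 or more among the called genes were seen in 9 that rose and 3 that fell. With an unadjusted p under 0.05, 1997 of all 16863 genes rose and 1027 fell by that much. These shares of all genes are also the background for the count of each list below. Among the 10 other receptors and adaptors tested, 4 rose and 3 fell. GRB10, an adaptor that dampens insulin receptor signaling, fell by 0.67 on the log2 scale (SE 0.084, edgeR adjusted p = 9.62e-06). Among the 4 other PI3K subunits tested, 2 rose and 1 fell, the latter being PIK3R2 with the uncertainty given above.

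Among 8 genes tested from PDPK1, the mTOR complexes and their regulators, 2 rose and 2 fell. MAPKAP1, a subunit of the mTORC2 complex that phosphorylates AKT, was at 100.4 and 100.2 CPM in shCon and at 27.9 and 30.1 CPM in shUBXN1. It was the only one of these past a fold change of 2, with a log2 fold change of -1.79 (SE 0.079, edgeR adjusted p = 5.01e-10). PDPK1, which phosphorylates AKT in its activation loop, fell by 0.33 (SE 0.074, edgeR adjusted p = 0.0017), a call lost with limma on log2(TPM + 1) (-0.26, adjusted p = 0.0562). Annotated genes on the other strand cover 23.7% of the exon bases of PDPK1 and 11.5% of those of MAPKAP1. Their counts were not summed, so the effect of this overlap was not tested. RICTOR, the defining subunit of mTORC2, rose by 0.37 (SE 0.087, edgeR adjusted p = 0.00222), and MTOR, its kinase, rose by 0.20 (SE 0.074, edgeR adjusted p = 0.0342) on the log2 scale. The MTOR call was lost in 6 alternatives, among them the removal of the GC trend (0.09, edgeR adjusted p = 0.398), and the RICTOR call without shCon replicate 2 (edgeR adjusted p = 0.111).

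Among 11 genes that restrain PI3K or AKT, 5 rose and 4 fell. PIK3IP1, a membrane protein that inhibits PI3K, was near the bottom of the measured range in shCon (0.638 and 0.724 CPM) and at 5.66 and 4.44 CPM in shUBXN1. It rose by 2.89 on the log2 scale (SE 0.315, edgeR adjusted p = 2.74e-06). TRIB3, a pseudokinase that binds AKT and is induced by stress, was at 163.4 and 159.4 CPM in shCon and at 49.7 and 54.7 CPM in shUBXN1, and fell by 1.63 (SE 0.078, edgeR adjusted p = 1.06e-09). These 2 genes of the list thus moved in opposite directions, each by more than any of the 8 genes.

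Among 17 AKT substrates and mTORC1 genes, 9 (52.9%) rose and 4 (23.5%) fell, with none at a fold change of 2. Of all genes tested, 28.0% rose and 28.2% fell. EIF4EBP2, a translation repressor that mTORC1 inactivates, fell by 0.78 on the log2 scale (SE 0.077, edgeR adjusted p = 1.03e-06). Of 8 genes tested from the next list, 1 rose and 1 fell. These were FOXO4, SFN and the YWHA genes, whose proteins hold phosphorylated FOXO in the cytoplasm. YWHAE was at 648.9 and 699.9 CPM in shCon and at 348.2 and 410.7 CPM in shUBXN1, and fell by 0.83 on the log2 scale (SE 0.091, edgeR adjusted p = 2.8e-06).

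Of 21 known FOXO target genes tested, 12 (57.1%) rose and 5 (23.8%) fell, where 28.0% and 28.2% of all genes tested did so, and the median log2 fold change was 0.49, against 0.02 for all genes. Of these, 8 rose by a fold of 2 or more, IRS2 and PIK3IP1 among them, and 1 fell by as much. BCL6, a transcriptional repressor, was at 62.0 and 59.6 CPM in shCon and at 307.1 and 259.1 CPM in shUBXN1, and rose by 2.22 on the log2 scale (SE 0.090, edgeR adjusted p = 2.27e-10). GADD45A, a growth arrest and stress gene, was at 22.7 and 26.0 CPM in shCon and at 83.3 and 88.8 CPM in shUBXN1, and rose by 1.82 (SE 0.087, edgeR adjusted p = 1.08e-09). FBXO32, a ubiquitin ligase subunit known from muscle wasting, rose by 1.19 (SE 0.079, edgeR adjusted p = 2.12e-08). The gene that fell by more than a fold of 2 was TXNIP, an inhibitor of glucose uptake named here after its value was seen, at 2.14 and 1.49 CPM in shCon and 0.647 and 0.342 CPM in shUBXN1 (log2 fold change -1.86, SE 0.464, edgeR adjusted p = 0.00346). Other pathways also control many of these genes, and the list was written with earlier results of these data known, so its count is no independent evidence of a direction.

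**Figure D4:**
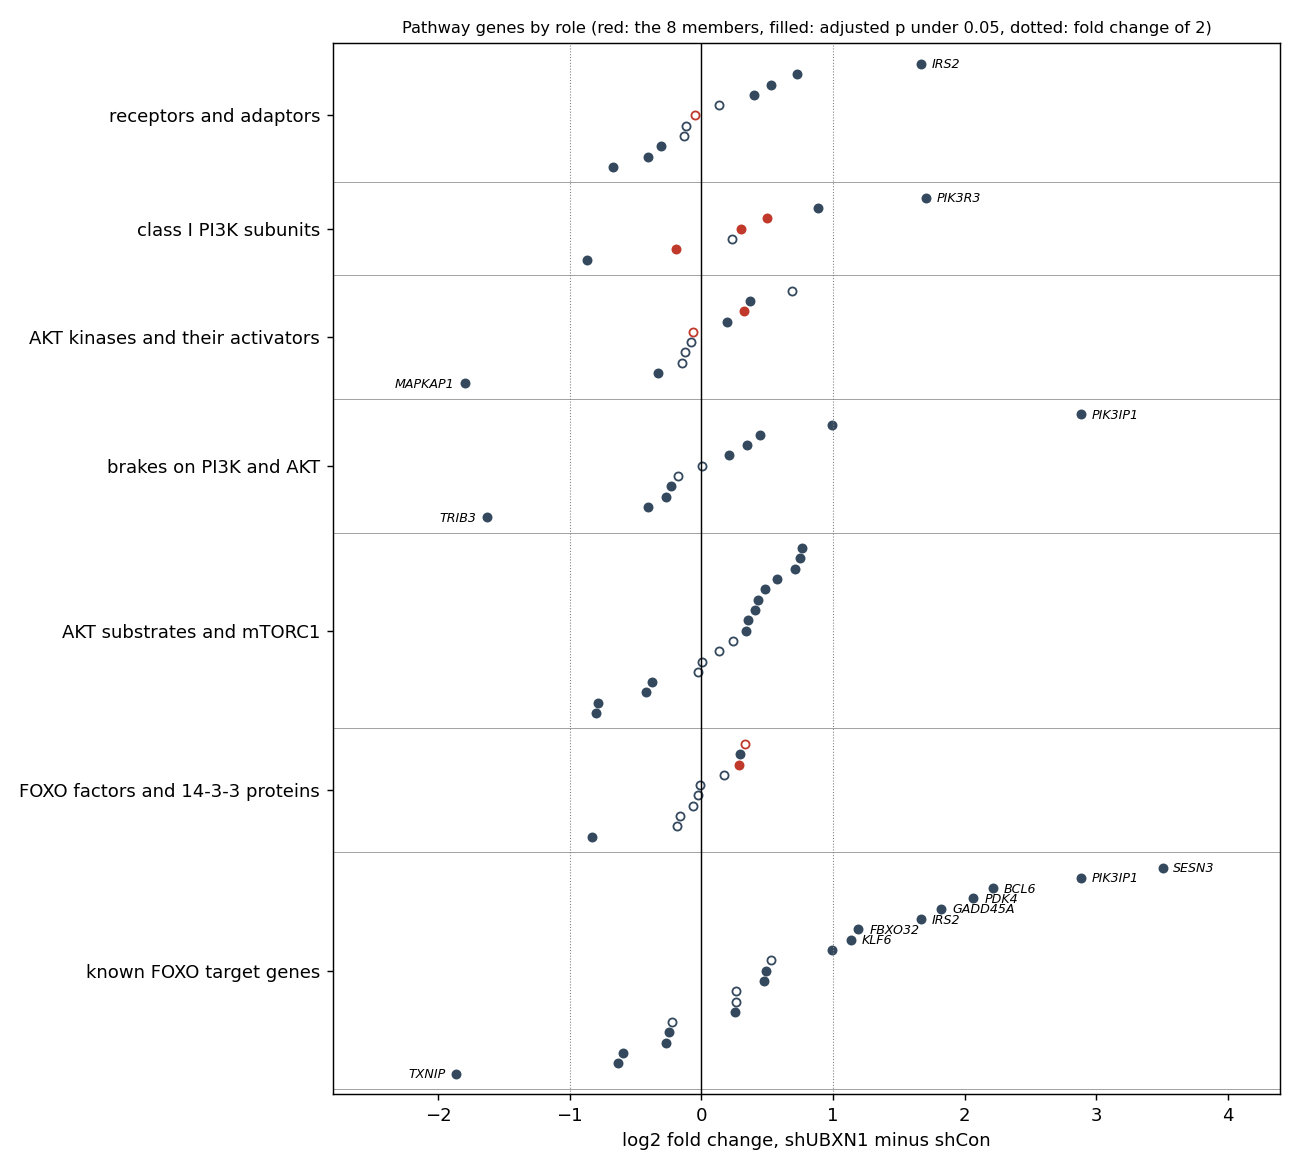
Log2 fold change of shUBXN1 minus shCon (horizontal axis) of each tested gene in the 7 lists, 1 point per gene, grouped by role on the vertical axis and sorted within each list. Red points are the 8 genes described above, filled points had an adjusted p under 0.05, and names are given past a fold change of 2 (dotted lines). The red points all lie between -0.2 and 0.5, while MAPKAP1, TRIB3, PIK3R3, IRS2, PIK3IP1 and several FOXO targets lie outside the dotted lines.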

How the data were processed

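Total RNA of MHCC97H cells was sequenced in 4 libraries, grouped by the labels. The authors deposited expected counts per gene, not normalized, with a gene length. Per the labels, HISAT2 2.0.4, StringTie 1.3.0 and GRCh37 were used, whereas the study's methods name Hisat2 and GRCh38. The labels name the control shCon and a VAHTS kit, and the methods name shRFP and a TruSeq kit. The counting tool, its annotation and its use of strand are not given in the sources used here. Of 61541 gene IDs, 61369 (99.7%) matched a symbol. Overlaps between genes were taken from GENCODE release 44 (GRCh38), and promoter sequences from RefSeq (GRCh38.p14), where 8 of 8 genes matched.

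The deposited expected counts were rounded to whole numbers, filtered with filterByExpr (minimum count 10), scaled by TMM and passed to the quasi-likelihood test of edgeR 4.0.16 (glmQLFit, then glmQLFTest, R 4.3.3), with group as the only term. P-values were adjusted by Benjamini-Hochberg over 16863 genes, and genes were called at 0.05. The SE was computed as |log2 fold change| / sqrt(F). CPM are TMM-scaled, and TPM were computed from the counts and the deposited lengths. The biological coefficient of variation was 0.0711. Replicates differed beyond counting noise (chi-square per degree of freedom 3.75 in shCon and 8.34 in shUBXN1). Tested on simulated data with 200 changed genes among 16863, the fit recovered 169 and called 15 others. Recovery of changes as small as those of the 8 genes was not tested. Recovery in data with as many genes called as here (56.2%) was not tested either. Ratios of paralogues per length were compared with two-sided exact permutation tests. Alternatives were DESeq2 1.42.0, limma 3.58.1 (voom, log2(TPM + 1) and log2(CPM + 1)), other scalings and filters, no mitochondrial counts, unrounded counts, a replicate block, a loess trend on GC content and leaving out each library. Summing overlapping genes was added after seeing the data, for PIK3CA, AKT1, FOXO1, PIK3R2 and PIK3R3 only. The sums left the CPM of AKT1 and PIK3R3 unchanged.

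The 8 genes, the 7 lists and the tests were chosen with earlier results of these data known. Genes named beyond the 8 are their paralogues and direct partners, UBXN1 and, in each list, up to 3 further genes with the smallest p among those called at a fold change of 2 (or 1 called gene where none reached it). Some genes of this rule and of the lists are not reported here and were left out of the list counts.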

Additional observations from a re-analysis of the deposited data

How the results depend on the processing

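All values are log2 fold changes of shUBXN1 minus shCon unless counts are named, and the cause of each move was not tested. Over 17 alternatives PIK3CA kept its direction and its call. The call of PIK3CB was lost with DESeq2 (-0.21), limma on log2(TPM + 1) (-0.13), total count scaling (-0.11), a minimum of 10 counts in every library (-0.17) and the GC trend removed (-0.14, and -0.14 with the replicate block), and under the first 4 of these 0 of the 8 genes were called lower. With the GC trend removed, AKT1 became called (-0.36, and -0.36 with the replicate block) and AKT2 lost its call (0.090, and 0.091 with the block), and the log2 ratio of IRS1 to IRS2 was -1.58. PIK3R1 lost its call with DESeq2 (0.28) and limma on log2(TPM + 1) (0.33). The sign of uncalled genes turned under total count scaling, which moved the median of all genes to 0.10, for AKT1 (0.022) and IRS1 (0.032). It also turned on log2(TPM + 1) for IRS1 (0.0067), and with the GC trend removed for FOXO4 (-0.048, and -0.048 with the block). On log2(TPM + 1), 13 other pathway genes were called lower. Over the whole table, a fold change of 2 with an unadjusted p left 1997 genes higher and 1027 lower.

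Leaving out 1 library at a time gave -0.17 to 0.022 for AKT1, -0.27 to -0.14 for PIK3CB, 0.22 to 0.37 for PIK3R1, 0.11 to 0.58 for FOXO1, 0.24 to 0.33 for FOXO3 and -0.13 to 0.0070 for IRS1. The sign of AKT1 and IRS1 turned without shUBXN1 replicate 1, and AKT1 was called without shUBXN1 replicate 2. Of the 8 genes, 2 to 5 were then called higher (2 without shCon replicate 2) and 0 to 2 lower (2 without shUBXN1 replicate 2). In a left-out fit the lone library was assumed to vary like the other group. Deviations of same-numbered libraries from their group means correlated at 0.0393, a value that both pairs share when groups hold 2. With so few libraries, this value cannot tell whether same-numbered libraries were handled together. The replicate block alone left 4 of the 8 genes called higher and 1 lower, and called 5000 genes higher and 5023 lower over the table. Of 323 values for 19 other named genes, 310 kept direction and call, 11 lost the call and 2 turned sign. FOXO1, with the fewest counts, was the most limited by depth.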
